A study of Mus musculus with 6 samples.

Results

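This account follows 8 genes that encode some of the largest proteins of muscle and of the cytoskeleton, Ttn, Neb, Syne1, Dst, Macf1, Ryr1, Ryr2 and Ryr3, through exome variant lists of mouse bone marrow and ear. The genes were taken by their symbol in the annotation of each list, whatever their values, and they are 8 genes beside 6413 genes for which the lists give a coding length (that of the longest annotated transcript with a coding call). The DNA came from whole bone marrow and from ear of 3 C57BL/6 mice, animals 54 and 108 (males) and 136 (female), so that each tissue has 3 samples. All 3 mice carried Srsf2 P95H, a change in a splicing factor, and had received tamoxifen in vivo. The protocol places sampling 50 to 60 weeks after it, when the mice were moribund, whereas the sample labels give the same 50 to 60 weeks as the age, so the age is uncertain. The sample labels give each of them R26-CreERT2, a tamoxifen-inducible Cre expressed from a ubiquitous locus, whereas the design text assigns an hScl-CreERT driver with R26eYFP to 1 of the animals. There is no animal without the change or without tamoxifen, so nothing here can be set against an untreated mouse, and ear is skin and cartilage that also holds blood cells. Exome reads show the DNA of all cells of a sample, whether or not a cell uses the gene.

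Titin, the product of Ttn, is the elastic filament that spans the sarcomere from its edge to its middle, and nebulin, from Neb, runs along the thin filament of skeletal muscle. Dystonin (Dst) and MACF1 are spectraplakins, linkers that tie actin to microtubules and, for dystonin, to intermediate filaments, while nesprin-1 (Syne1) anchors the cytoskeleton to the nuclear envelope. Ryr1, Ryr2 and Ryr3 encode ryanodine receptors, the channels that release calcium from the sarcoplasmic or endoplasmic reticulum, known chiefly from skeletal muscle, heart and brain respectively. In tumour exomes such genes often carry variants because their coding sequence is a long target, which makes coding length the natural yardstick for their counts.

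The label of giant genes was checked against the lengths in the lists. Ttn had the longest coding sequence of all 6413 genes, 105.6 kb or 35213 residues. Dst (23154 bases), Macf1 (22068 bases) and Neb (21459 bases) ranked 3, 4 and 5, and Ryr1 (15108 bases), Ryr2 (14901 bases) and Ryr3 (14667 bases) ranked 20, 24 and 26. These 7 genes together have 217.0 kb of coding sequence, of which Ttn holds nearly as much as the other 6 (111.4 kb). Syne1 had no coding site in any list and therefore no length.

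The absence of coding sites in Syne1 goes with the annotation. RefSeq places the gene at chr10:5020192-5550692 in GRCm38.p6, yet the lists name Syne1 only through 2 short transcripts, whose calls lay at or below position 5035169 and at or above position 5352272. Of 89 calls of all lists inside the RefSeq span, 70 (78.7%) were not given to Syne1. They lay between positions 5102196 and 5330211, in the middle of the gene. In the other 7 genes, every call inside the RefSeq span, from 55 in Ttn to 112 in Dst, carried the gene's name. Of the calls in the uncovered stretch, 2 were Strelka calls of animal 108 (T>C at positions 5322716 and 5330211). The SAMtools list of all variants in that marrow held the first as well, with 8 of 64 reads (12.5%). VarScan2, another caller, listed a deletion of C in the same stretch in animal 54, at position 5218416. It had 6 variant and 9 reference reads in marrow, and 6 and 42 in ear. Whether these calls change nesprin-1 was not tested, since the annotation used gives no transcript there. The counts of Syne1 below, those of 0 included, are counts under this annotation.

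Strelka, a somatic caller run on marrow against ear of the same mouse, listed 25 coding calls (splice regions included) in 7 of the 8 genes, all single nucleotide changes. Ttn had 8 calls, Neb, Dst and Ryr2 had 4 each, Macf1 had 3, and Ryr1 and Ryr3 had 1 each. Animal 54 had 14 of the calls (of 1613 coding calls of that animal in all genes), animal 136 had 9 (of 1187) and animal 108 had 2 (of 858). Animal 108 had both the fewest calls in all and the fewest here. No call of these genes was shared by animals.

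The 8 calls in Ttn (chr2:76703980-76982557, minus strand) were spread over most of the protein, and 4 of them would change it. Animal 54 carried 4, of which K28099R in exon 309 of 347 had the highest Strelka quality of any call in these genes (85, a phred-scaled score of the authors' caller). It also carried the sole call that would truncate a protein, the stop E6543* in exon 69 (quality 25), and the synonymous T24677T (quality 25, exon 309) and V15618V (quality 20). Animal 136 carried V20979F (quality 49) in exon 294, L17707S (quality 19) in exon 270 and the synonymous S3832S (quality 30), which is numbered on a shorter transcript of 5508 residues. Animal 108 carried the synonymous L33929L (quality 57). Strelka lists give no reads, so none of these has a variant fraction of its own, and SAMtools listed none of the 8 in the matching marrow.

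Neb (chr2:52136640-52338798, minus strand) had 4 missense calls: A5068S, K4394R and Q44R in animal 54 (qualities 23, 21 and 30) and A3682S in animal 136 (quality 22). All 4 would alter nebulin, and no other of the genes had protein-altering calls alone apart from Ryr1 with its 1 call.

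Among the linkers, Dst (chr1:33907888-34308662, plus strand) had 1 missense call, R4834K in animal 54 (quality 19). Its other calls were the synonymous A203A and S27S of animal 54 and a splice region change of animal 108. Macf1 (chr4:123349633-123687802, minus strand) had 1 missense call, Q5565H in animal 136 (quality 32), and the synonymous A7320A (animal 136) and L4151L (animal 54).

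Among the ryanodine receptors, Ryr2 (chr13:11553099-12106945, minus strand) stood first with 4 calls, as many as Neb and Dst on a shorter coding sequence. They were R3396P (quality 47) and I354N (quality 31) in animal 54, and R1051L (quality 37) and the synonymous A2522A (quality 22) in animal 136. Ryr1 (chr7:29003340-29125179, minus strand) had N1973Y in animal 136 (quality 25), and Ryr3 (chr2:112631354-113217405, minus strand) had the synonymous V2342V in animal 54 (quality 38).

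**Figure D1:**
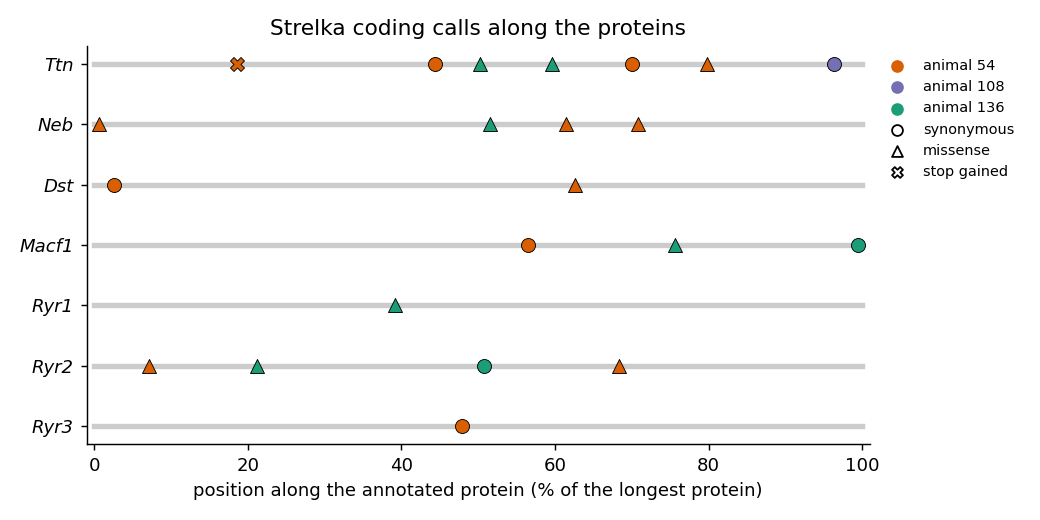
Strelka coding calls along the protein of each gene, as percent of its longest annotated protein; colour gives the animal and shape the effect. Calls annotated on a shorter transcript (1 in Ttn, 1 in Dst) and the splice region call of Dst are not drawn. The calls of Ttn run from its first 20% to beyond 95% of its length, and the E6543* cross is the one truncating call.

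Set against coding length, the 7 genes together had fewer or more Strelka calls than their share, depending on the yardstick. By the summed coding length of all 6413 genes, 54.8 calls were expected and 25 were listed (a ratio of 0.46, with 6 of the 7 genes below expectation). By the 50 Mb capture target, an alternative chosen after seeing the data, 15.9 were expected (a ratio of 1.57, with 2 of the 7 below). Ttn had 0.0757 calls per kb (95% Poisson interval 0.0327 to 0.149), the 6 other genes 0.153 per kb (17 calls, 0.0889 to 0.244) and the 20 longest genes outside the group 0.176 per kb (59 calls in 335.1 kb, 0.134 to 0.227). At the rate of those 20 genes, 18.6 calls would fall in Ttn. The interval of Ttn overlaps that of the 6 others and, only between 0.134 and 0.149, that of the 20 genes. Such overlap is no test, and the difference between these rates was not tested. Among those 20 genes the calls ran from 1 to 7 with a median of 3, and Abca13 (7 calls), Syne2, which encodes the sister protein nesprin-2, and Hmcn2 (5 each) had the most. The 7 genes had a median of 4 calls, against 0 over all 6413 genes, whose median coding length is 1629 bases.

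By the two-sided exact binomial test of each gene against its share of the summed coding length, no gene of the 7 passed at an adjusted p of 0.05 (Benjamini-Hochberg over 6413 genes). No gene of the 6413 did (0%), higher or lower, and 97 had an unadjusted p under 0.05. Ttn was the one of the 7 among them, with 8 calls where 26.7 were expected, a ratio of 0.30 (exact binomial p = 5.47e-05, adjusted p = 0.351). In simulated data, a gene of this length lowered to 0.3 passed in 30% of 20 draws, so the test often misses such a difference. Ryr2 had 4 calls against 3.76 expected, and the other 5 were below expectation, from 0.26 in Ryr1 to 0.74 in Neb, and the exact test gave each of these an adjusted p of 1. The expected values here are too high by construction, since a gene has a length only if some list holds a coding call in it, and 3002 of the 6413 genes have one from Strelka itself. With the length summed over the 4587 genes that have a coding call in an all-variant list, 16.0 calls were expected in Ttn (ratio 0.50, exact binomial p = 0.0432, adjusted p = 1). With the 50 Mb capture target as the length, 7.73 calls were expected and the ratio was 1.04. Ryr2 was then the furthest above its share, at 3.67 times (4 calls against 1.09, exact binomial p = 0.0250, adjusted p = 0.457). Only coding calls were counted, and how much of the 50 Mb is coding was not known here. Any non-coding bases in that target would make its expected values too low.

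**Figure D2:**
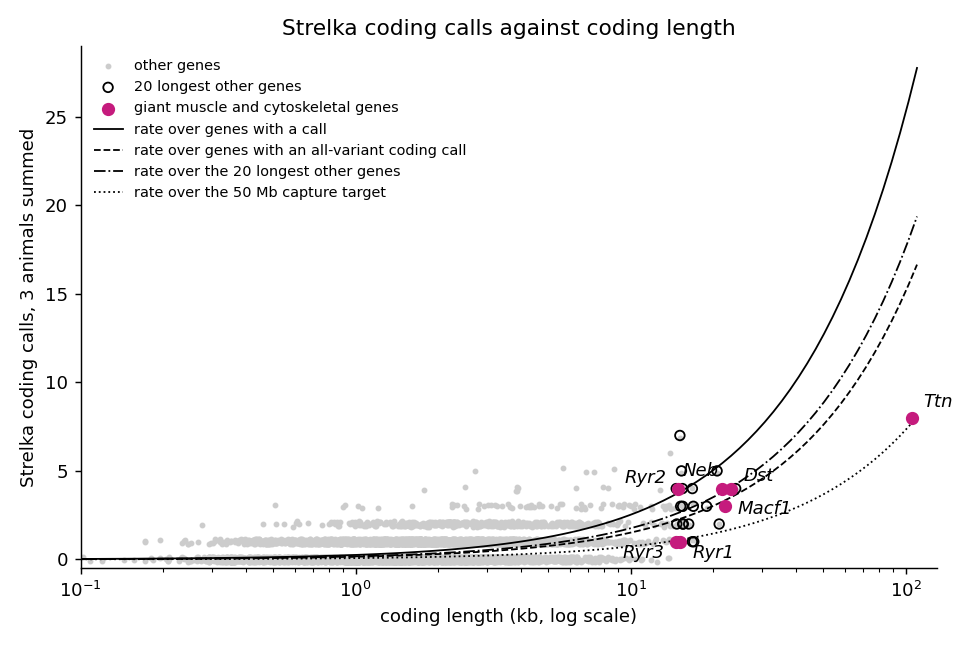
Strelka coding calls summed over the 3 animals (vertical axis) against coding length in kb (log scale) for each gene; lines give the calls expected at 4 rates per kb, and small vertical shifts separate the grey points. Ttn, with 8 calls, lies under the lines for genes with a call, for genes with an all-variant call and for the 20 longest other genes, and on the line for the 50 Mb target, while the other 6 genes lie among the open circles of the 20 longest genes.

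Per animal, the coding calls of the 7 genes per kb were 0.0645 in animal 54, 0.0415 in animal 136 and 0.00922 in animal 108. Relative to all other genes the ratio was 0.41 ± 0.23 (SD, n = 3), from 0.154 in animal 108 to 0.576 in animal 54, and relative to the 20 longest it was 0.588 ± 0.311 (SD, n = 3). Against these sets of genes the ratio was below 1 in all 3 animals, a direction that the 50 Mb target turns for the 3 animals summed.

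The Strelka calls of these genes had the make-up of the whole list in some respects. Of the 25, 10 were of the class C>A (counted with its complement G>T), with a 95% Clopper-Pearson interval of 21.1 to 61.3%, against 39.8% of 3552 calls in other genes. C>T made up 16.0% (4.54 to 36.1) against 34.4%, and T>C 32.0% (14.9 to 53.5) against 17.2%. On the genome's plus strand 9 of the 10 C>A-class calls read C>A and 1 read G>T, where other genes had 998 and 414. All of the genes but Dst lie on the minus strand, and on the coding strand the 10 calls read G>T in 8 and C>A in 2, where other genes had 700 and 712. Protein-altering calls were 14 of 25 (56.0%, 34.9 to 75.6), below the 72.6% of other genes and the 69.5% of the 20 longest, with an interval that spans both. The median quality was 25, the same as in other genes.

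SAMtools, run on each sample by itself, listed 4 of these 25 calls (16.0%, 4.54 to 36.1) in the matching marrow, against 9.52% in other genes. They were the synonymous Dst S27S at chr1:34160410-34160410 (4 of 40 reads), the Dst splice region change at chr1:34263257-34263257 (4 of 35, 11.4%), Macf1 L4151L at chr4:123452246-123452246 (4 of 24, 16.7%) and Ryr3 V2342V at chr2:112778268-112778268 (6 of 56, 10.7%). None of the 4 was annotated as protein-altering, and whether the splice region change affects splicing was not tested. Each was carried by 6 reads or fewer, and none was in the list of the matched ear. No Strelka call of these genes, coding or not, was in any list of another animal.

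Strelka also listed 10 calls of these genes outside coding sequence, 3 of them in introns of Ttn. The one insertion lay in intron 92 of Ryr2 in animal 136 (quality 35) and is printed because it is the longest change in these genes; the plus strand of the file is given, the base before the insertion in lower case and the 15 inserted bases in capitals, at chr13:11591144-11591144.

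Ryr2 insertion: cAGAAGAAAAAGCCAA

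VarScan2, the other caller of marrow against ear, listed no somatic coding call in any of the 8 genes, among 320 such calls in all genes. A count of 0 allows up to 3 calls, in one animal or over all of them. At the rate of other genes, from 0.942 calls in animal 136 to 2.22 in animal 108 were expected in the 7 genes, below that limit. Over the 3 animals 4.79 calls were expected by the summed length, above it, and 1.39 with the 50 Mb target, below it. Expected values from the lengths of listed genes are too high by construction here as well. Of the 6413 genes, 39 (0.608%) were called by the exact binomial test, all higher than their share, and 140 had an unadjusted p under 0.05. None of the 7 was in either number. With at most 2.33 calls expected in a gene of the 7 (Ttn, exact binomial p = 0.183), a count of 0 could not be called lower. VarScan2 also marked 500 calls as loss of heterozygosity, none of them in these genes.

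Outside coding sequence VarScan2 had 8 somatic calls in 5 of the genes, 6 of them in animal 108. In Neb, 2 calls at chr2:52227577-52227577 and chr2:52227579-52227579 had 17 of 55 and 20 of 56 reads in marrow and 2 of 42 and 2 of 35 in ear. In Ttn, a call at chr2:76838964-76838964 of animal 108 had 15 of 27 reads in marrow and 1 of 18 in ear. In Ttn of animal 54, a call in intron 50 had 5 of 20 reads in marrow and 0 of 35 in ear. In Ryr1 an intron 89 call had 8 of 15 and 0 of 10 reads, and in Syne1 an intron 12 call had 23 of 55 and 9 of 51, both in animal 108. The remaining calls were in Dst, a 2-base deletion in animal 108 with 6 of 19 and 0 of 11 reads and an intron 67 change in animal 136 with 9 of 15 and 3 of 16.

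Of these 8 calls, 5 were at sites whose same allele stood in all-variant lists of both other animals. The Ttn allele at position 76838964 was read in 10 of 27 marrow and 5 of 26 ear reads of animal 54. Animal 136 had it in 13 of 27 and 3 of 8 reads. The Ryr1 allele was listed in all 6 samples, the animal's own ear included (7 of 17 reads there). The Dst allele was listed in both tissues of animals 54 and 108. The 2 Neb alleles stood in the ear list of animal 54 (18 of 69 and 16 of 67 reads) and the marrow list of animal 136 (10 of 39 and 10 of 37). The Syne1 allele was listed in the ear of its own animal, with 16 of 62 reads. The Dst deletion is written in another notation by SAMtools, which listed a loss of 2 bases at the same position in marrow of animal 108 (7 of 17 reads) and ear of animal 54 (5 of 15). Only the Ttn change of animal 54 was in no ear list and no list of another animal. No call of these genes was made by both callers.

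Sites listed in both tissues of an animal with the same alleles are called inherited here. There were 9 inherited coding entries in these genes over the 3 animals, 5 in animal 54, 3 in animal 108 and 1 in animal 136, at 8 distinct sites. That is 0.0138 ± 0.0092 per kb and animal (SD, n = 3), against 0.388 ± 0.258 in all other genes. The rate of other genes is too high by construction, since only genes with a coding call in some list have a length. No other length total was used for inherited sites, so the size of this difference was not tested. The 7 genes had a median of 1 entry, the 20 longest other genes a median of 2 and all 6413 genes a median of 0, with an entry in 4 of the 7, 12 of the 20 and 2830 of the 6413. Inherited sites lie together on stretches of DNA that differ from the reference, so their numbers are a description and were not tested.

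**Figure D3:**
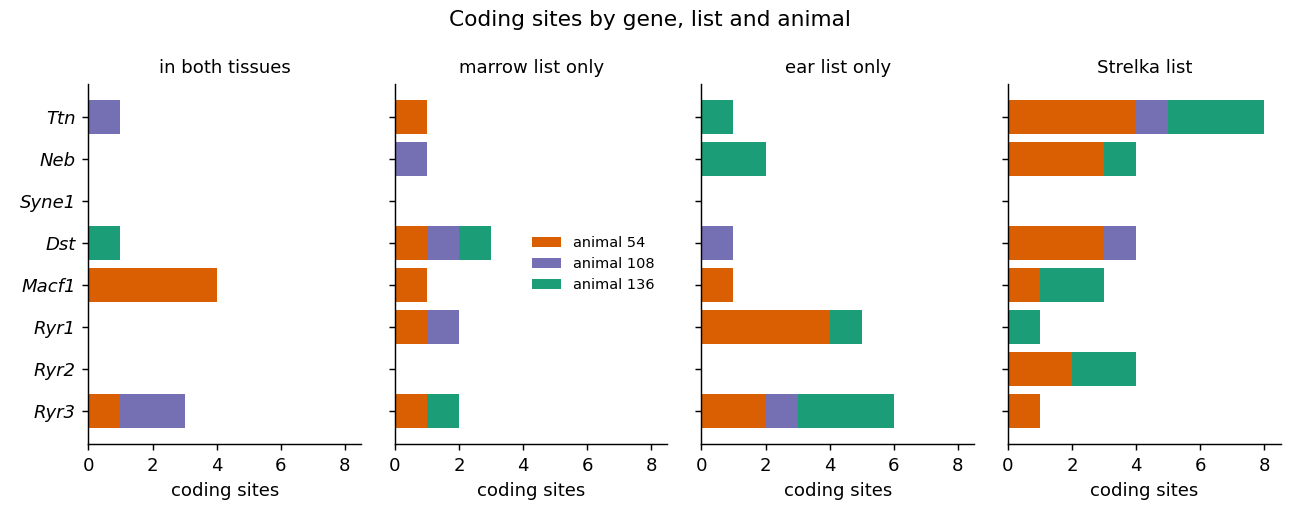
Coding sites of each gene by list; bars are stacked by animal and count sites. Sites in both tissues lie in 4 genes, with the 4 of Macf1 all in animal 54, and the Strelka list is the one in which Ttn leads, with 8.

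A missense change of titin, G22891R in exon 309 at chr2:76751877-76751877, was inherited in animal 108 alone. Marrow had it in 93 of 194 reads, or 47.9% (95% Clopper-Pearson interval 40.7 to 55.2). Ear had it in 134 of 217, or 61.8% (54.9 to 68.2). Exon 309 is long, with calls over at least 15626 coding bases, and also holds 2 of the Strelka calls. In Ttn this was the one shared single nucleotide site of animal 108 within the gene, and animals 54 and 136 had 1 each, at another position.

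The other inherited missense change was V3793A of Macf1, found in animal 54. Marrow had it in 48 of 89 reads, or 53.9% (43.0 to 64.6), and ear in 59 of 143, or 41.3% (33.1 to 49.8). It came with 3 synonymous changes in the same animal. P5315P had 26 of 54 and 48 of 97 reads, E4821E had 31 of 76 and 73 of 129, and S3967S had 9 of 21 and 26 of 53, in marrow and ear. Over both tissues the fractions of the 4 ran from 40.8% to 56.6%.

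These 4 belong to a run of shared sites in animal 54. Within the Macf1 span, animal 54 had 33 single nucleotide sites in both tissues and animals 108 and 136 had 0. With 1 Mb on either side the numbers were 116, 3 and 3. The sites began at position 123350868, all but 1 lay within 105.8 kb, and the last was 45.3 kb further on, so that the upper part of the gene held almost none. Their median fraction was 49.4% in marrow and 48.0% in ear, and 30 of the 33 lay between 30% and 70% in both tissues. These levels are close to the 50% that a variant on 1 of 2 chromosome copies would give.

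**Figure D4:**
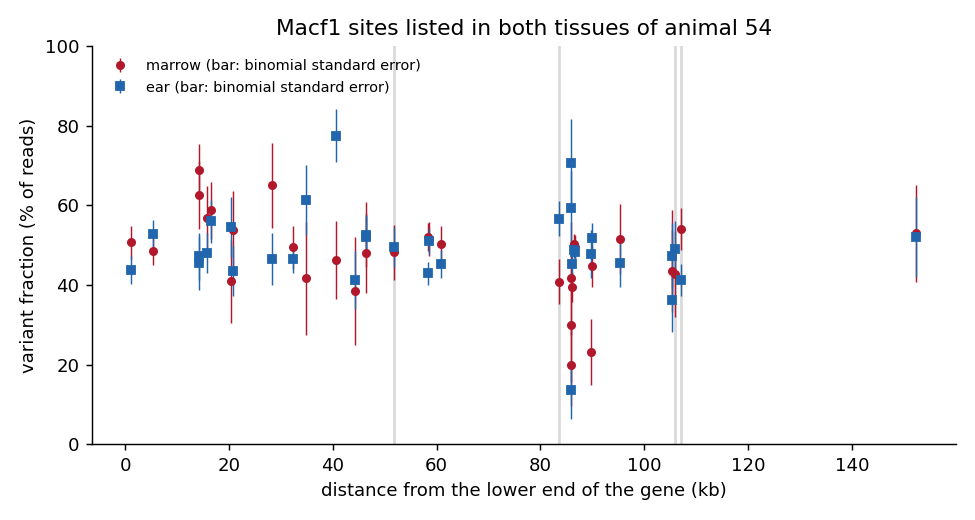
Variant fraction in percent of reads at the 34 sites, 1 of them an indel, listed in both tissues of animal 54 in Macf1, against distance in kb from the lower end of the gene; bars are binomial standard errors and grey lines mark the 4 coding sites. Points of both tissues scatter around 50%, and the last site stands 45.3 kb apart from the others.

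Ryr3 had the same kind of run in animal 108, with 10 shared single nucleotide sites in the gene against 1 each in animals 54 and 136, and 120 with 1 Mb on either side against 4 and 1. Its coding site there was the synonymous V2754V, with 154 of 347 reads in marrow (44.4%) and 146 of 335 in ear (43.6%). Dst, by contrast, had 7, 7 and 5 shared sites in animals 54, 108 and 136 and as many with its flanks. Its inherited coding site, the synonymous A4051A of animal 136, was read in 108 of 258 marrow reads (41.9%) and 90 of 157 ear reads (57.3%). Neb had 3, 6 and 5 and Ryr1 7, 8 and 6 such sites, all outside coding sequence, and Ryr2 had at most 3 in an animal. With 1 Mb on either side Neb had 49, 8 and 5, so that animal 54 had the most there. Ryr1 had 18, 23 and 15 with its flanks, and Ryr2 5, 3 and 5.

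The Ryr3 splice region site at chr2:112633125-112633125 was the only coding site of the genes inherited in more than 1 animal, and its reads looked unlike the others. It was listed with 7 of 32 reads in marrow and 15 of 40 in ear of animal 54, 7 of 28 and 18 of 45 in animal 108, and 6 of 19 in ear of animal 136, with no entry in marrow of that animal. The lowest fraction was 21.9%, in marrow of animal 54, and the highest 18 of 45 reads. Every variant read was on the reverse strand, and the mean mapping quality was 36 to 40, against 42 at most coding sites. It stood within 11 bases of 2 synonymous sites, L4843L (13 of 51 reads in ear of animal 54) and F4841F (11 of 42 in ear of animal 54 and 13 of 45 in ear of animal 108), with reads on the same strand only. The part of strand and mapping in these entries was not tested.

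Coding sites listed in only 1 tissue of an animal, tissue-private sites, numbered 10 in marrow and 16 in ear over the 6 samples, at 0.0154 ± 0.0070 per kb (SD, n = 3) in marrow and 0.0246 ± 0.0133 in ear. Other genes had 0.0550 ± 0.0072 and 0.0628 ± 0.0061, and the 20 longest 0.0398 ± 0.0096 and 0.0368 ± 0.0096. The rates of other genes are too high by construction, since only genes with a coding call in some list have a length. No other length total was used for private sites, so whether the giant genes have fewer of them was not tested. In animal 54 the giant genes had 5 in marrow and 7 in ear. Animal 108 had 3 and 2, and animal 136 had 2 and 7. Ear had more in 2 of 3 animals, and the spread within a tissue covered the difference between tissues.

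Private sites were thinly covered. Of the 26, 11 had under 20 reads, 16 had at most 4 variant reads and 16 had all variant reads on 1 strand. Among the private sites of other genes, 2281 in marrow and 2653 in ear, 990 and 1164 had under 20 reads, 1178 and 1400 had at most 4 variant reads, and 1182 and 1448 had variant reads on 1 strand only. In the giant genes their median fraction was 15.6% in marrow and 23.6% in ear, against 42.9% and 49.1% at inherited sites and a median of 20% at private sites of other genes in either tissue. No private site of the giant genes was above 31.6%. The median coverage was 29.5 and 25 reads, against 76 and 129 at inherited sites.

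**Figure D5:**
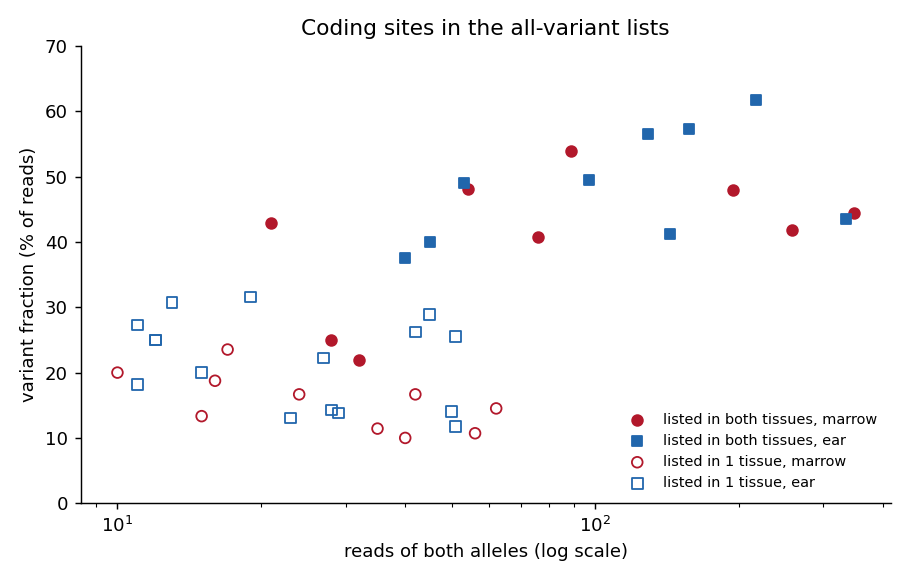
Variant fraction in percent of reads against reads of both alleles (log scale) for each coding site of the genes in the all-variant lists. Sites listed in 1 tissue (open) lie at 62 reads or fewer and below 32%, and those listed in both (filled) reach 347 reads and mostly lie between 40% and 62%, apart from the Ryr3 splice region site.

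Of the 26 private sites, 15 lay in Ryr1 or Ryr3, and 11 were missense, 7 synonymous and 8 in splice regions. In exon 91 of Ryr1, animal 54 had A4351V in marrow (3 of 16 reads) and G4344D, G4344S and A4343A in ear (3 of 12, 3 of 12 and 3 of 11), all within 24 bases, and all on the reverse strand. Ryr3 had A4157S (3 of 15) and D4136E (2 of 11) in ear and I2621V (2 of 15) in marrow of animal 136. Titin had S32603T in ear of animal 136 (3 of 23) and G31702E in marrow of animal 54 (2 of 10). The best covered missense ones were Macf1 E912K in ear of animal 54, with 6 of 51 reads (11.8%, 4.44 to 23.9), and Neb M2698I in ear of animal 136, with 4 of 29 reads. Dst Y4D in ear of animal 108 had 4 of 13 reads.

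The one private indel was a shortened dinucleotide repeat in intron 10 of Ryr1, in a splice region at chr7:29110804-29110840, and the same change was listed in marrow of animal 108 (7 of 42 reads, 16.7%) and in ear of animal 54 (7 of 50 reads). It is printed because it is the coding-class change that appeared in 1 tissue of one animal and the other tissue of another. The plus strand is given as in the lists, and capitals mark the 2 bases that the variant lacks, placed at the end although any unit of the repeat could be the lost one.

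Ryr1 reference: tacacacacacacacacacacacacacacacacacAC

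Ryr1 variant: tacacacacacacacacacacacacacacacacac

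Marrow and ear were compared at every site of these genes that both tissues listed, with at least 10 reads in each, by a two-sided Fisher's exact test with Benjamini-Hochberg adjustment over all shared sites of the animal. The animals 54, 108 and 136 had 53, 34 and 22 such sites, and none passed. Over all genes 0.0346%, 0.0327% and 0.0181% of sites did. At an unadjusted p under 0.05 there were 5, 1 and 2 sites (9.43%, 2.94% and 9.09%), beside 8.41%, 7.43% and 6.22% over all shared sites, a difference that was not tested. The lowest value was at an intron site of Neb in animal 54, with 13 of 54 reads in marrow and 46 of 85 in ear (exact p = 0.000745, adjusted p = 0.199). Titin G22891R was 13.8 percentage points lower in marrow, at -13.8 (exact p = 0.00545, adjusted p = 0.375), and Dst A4051A differed by -15.5 points (exact p = 0.00240, adjusted p = 0.368).

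At 10 sites of Dst, Neb and Ryr1, none of them coding, all 6 samples had the variant with enough reads. None passed the Cochran-Mantel-Haenszel test with the animal as stratum after adjustment over 4444 such sites, of which 0.0225% did, and none had an unadjusted p under 0.05. Tissues were furthest apart at Dst position 34193594, at 31.6% ± 8.6 in marrow and 44.8% ± 16.8 in ear (SD, n = 3), and marrow was the higher tissue there in 1 of 3 animals.

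Genes that work with these were read from 3 lists, chosen for function. Of 40 genes of the sarcomere and its filaments, 19 had a coding length, and 8 Strelka calls fell in 5 of them (0.0761 per kb). Of 22 genes of calcium release and excitation-contraction coupling, 9 had a length, and 4 calls fell in 4 of them (0.103 per kb). Of 29 partners of the spectraplakins, spectrins and nesprins, 18 had a length, and 18 calls fell in 11 of them (0.141 per kb), with 5 in Syne2. Over all 6413 genes the rate was 0.252 per kb, too high by construction, and over the 7 giant genes 0.115 per kb. It was 0.151 per kb over the genes with an all-variant coding call and 0.0732 per kb over the 50 Mb target. Whether the lists lie below or above the background thus depends on the yardstick. By the summed length, the median ratio of observed to expected calls was 0, 0 and 0.51, against 0 over all 6413 genes and 0.54 over the 7 giant genes. Of the 6413 genes, mostly far shorter than the 7, 3411 had no Strelka call, so these medians do not compare rates. No gene of the 3 lists passed the exact binomial test in either direction, as none did in all. VarScan2 had 3, 0 and 0 coding calls in them.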

How the data were processed

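The 6 samples are exomes captured on a 50 Mb target at a mean of 100 reads, as the labels state. The builds mm9 and GRCm38, and the tools SAMtools, Bowtie2 and FastQC appear in the submitters' processing notes; positions fit GRCm38, since every call inside the RefSeq span of one of these genes of GRCm38.p6 carried the gene's name except in Syne1. The deposited all-variant lists give reads per allele as counts, from a depth of 11 up. The authors' VarScan2 lists give deposited read counts, variant fractions in percent and a somatic p-value, and the authors' Strelka lists give a quality score and no reads. How the callers were set was not given in the sources used here. Across samples the median depth at coding sites was 52 to 117.5 reads.

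A coding site had an annotated impact of LOW or above, and a protein-altering one MODERATE or HIGH. Each call was annotated on the transcript of highest impact, whose numbering is used. Intervals are at 95% and cover counting error only, since reads are not independent molecules. Tests treat calls as independent. The animal number pairs marrow with ear, as the labels say, and their deviations over 4444 sites correlated at 0.153, 0.196 and 0.111 in animals 54, 108 and 136.

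The genes and lists were chosen with earlier results of these data known. The text names all 8 genes, the 3 of the 20 longest other genes with the most Strelka calls, every protein-altering or doubly listed somatic call and inherited missense site; other sites were chosen after their values were seen. Tests used scipy 1.17.1 in Python and were tested on simulated data. There the exact binomial test found 3% of genes raised 5-fold and 68% of genes raised 20-fold. Fisher's test found 52.5% to 58.5% of sites whose marrow fraction was shifted by 0.4. Alternatives changed the impact, kind, quality or read minimum and left out animals; 2 other length totals were added after seeing the data.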

Additional observations from a re-analysis of the deposited data

How the results depend on the processing

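No alternative brought a gene of the 7 past the exact binomial test of either caller, or a site of the 8 genes past the Fisher or Cochran-Mantel-Haenszel tests, and those counts stayed at 0. For VarScan2 at most 2.57 calls were expected in a gene, so its test could not call any of the 7 lower. By Strelka at most 5.84 were expected in a gene other than Ttn, so a low count there could hardly pass either. Restricting the comparison to genes with a coding call in any list changed nothing, because only such genes have a length, and it was not run apart. The position of Ttn turned with the length total chosen after seeing the data: 0.30 times its expected calls by the summed length, 0.50 by genes with an all-variant coding call and 1.04 by the 50 Mb target. For the 7 genes together the ratio went from 0.46 to 1.57 with that target, and was 0.69 over the 6 genes with an all-variant coding call. Ryr2 has no such call, so it is left out there with its 4 Strelka calls, although it had the highest ratio of the 7 by the summed length (1.06). The ratio of the genes' Strelka rate to that of other genes moved from 0.41 to 0.697 with genes that have an all-variant coding call, and ran from 0.328 to 0.539 when 1 animal was left out. With protein-altering sites alone, inherited sites fell to 0.00307 per kb and tissue-private sites to 0.00845, from 0.0138 and 0.0200, as fewer sites are counted. With no replicate block, 0 of the 10 sites called in all samples passed, while over all genes the calls went from 1 to 8 of 4444 sites. Strelka quality limits the 25 calls, as it does those of other genes. A quality of 30 or more was given to 12 of the 25 (48.0%), against 35.1% of calls in other genes and 40.7% in the 20 longest. Of 109 shared sites, 77 had 20 reads in both tissues.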
